A study of Rattus norvegicus with 58 samples.

Results

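Carboxylesterase genes of the Ces1 and Ces2 families and Aadac, the gene of arylacetamide deacetylase, were followed in liver and kidney of male rats given 4-methylcyclohexanemethanol (MCHM), an alicyclic alcohol. A probe set was taken when its only gene symbol began with Ces1 or Ces2, or was Aadac. This gave 6 probe sets of 31042 and 5 genes (Ces2c, Ces1c, Ces1d, Ces1e and Aadac) of 14217 named on the array. A further probe set, which carries several symbols with 1 from these families, fell outside the choice. The animals were Harlan Sprague-Dawley males dosed by gavage for 5 days at 0, 0.1, 1, 10, 100, 300 or 500 mg/kg, and the labels do not say what the 0 mg/kg animals received. Each organ had 29 arrays, 5 at 0 mg/kg (the control of that organ) and 4 at each of the other 6 doses. The labels call the arrays biological replicates, give no age, and do not say which liver and kidney came from 1 animal. Each value is a deposited log2 expression value of 1 probe set on 1 array, so a difference of 1 is a doubling.

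Carboxylesterases are serine hydrolases that sit mostly in the lumen of the endoplasmic reticulum and split esters, amides and thioesters of drugs, pesticides and lipids. Enzymes of the Ces1 family act best on esters with a bulky acyl part, and those of the Ces2 family on esters with a bulky alcohol part. Arylacetamide deacetylase is a membrane-bound hydrolase of the same compartment, with its active site facing the lumen. Liver is rich in these enzymes, and several rodent Ces2 genes are known to respond to the xenobiotic receptors CAR and PXR.

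The members the results turn on are shown by the 250 bases before their annotated starts. Ces2c was the member that rose in liver, and Ces1d and Ces1e are neighbours on chromosome 19 whose kidney values are given below. The sequences are from RefSeq (build GRCr8, plus strand, written 5′ to 3′), and all 5 genes had an entry. Capitals mark letters that match, on either strand, the nuclear receptor half-site AGGTCA or its variant form AGTTCA, the core promoter word TATAAA or the CCAAT box. The windows are chr1:270376951-270377200 for Ces2c, chr19:30046244-30046493 for Ces1d and chr19:30005923-30006172 for Ces1e.
Ces2c: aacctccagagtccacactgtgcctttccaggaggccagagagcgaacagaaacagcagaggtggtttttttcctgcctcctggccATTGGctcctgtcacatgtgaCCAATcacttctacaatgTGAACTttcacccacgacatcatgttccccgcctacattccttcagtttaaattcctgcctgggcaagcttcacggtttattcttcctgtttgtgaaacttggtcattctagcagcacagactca
Ces1d: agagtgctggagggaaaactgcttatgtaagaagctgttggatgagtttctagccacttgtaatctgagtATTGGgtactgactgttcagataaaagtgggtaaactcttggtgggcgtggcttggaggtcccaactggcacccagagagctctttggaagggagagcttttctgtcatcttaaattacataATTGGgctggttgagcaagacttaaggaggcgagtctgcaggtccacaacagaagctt
Ces1e: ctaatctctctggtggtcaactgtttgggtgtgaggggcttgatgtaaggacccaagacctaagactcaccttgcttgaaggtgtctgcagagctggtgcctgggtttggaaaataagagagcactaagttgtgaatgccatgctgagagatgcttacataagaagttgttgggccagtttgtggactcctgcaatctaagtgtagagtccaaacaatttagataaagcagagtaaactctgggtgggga

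The Ces2c window held 1 match to AGTTCA and 2 to CCAAT, the Ces1d window 2 to CCAAT, and the Ces1e window no match to any of the 4 motifs. The Ces1c and Aadac windows held 1 match to AGTTCA each, and the Ces1c window 1 to CCAAT. No window of the 5 held AGGTCA, none held TATAAA, and none held a pair of half-sites written as AGNTCANNNAGNTCA with 3 bases between them or as AGNTCANNNNAGNTCA with 4. Among 33469 windows of the same length, AGTTCA was present in 12.2%, AGGTCA in 14.1%, CCAAT in 34.0%, TATAAA in 12.9%, and the half-site pairs with 3 and 4 bases between them in 0.0598% and 0.0538%. Both half-sites are cases of AGNTCA, the word that each pair repeats. Aligned with gaps, the Ces1c and Ces1d windows were identical at 60.9% of positions, Ces1c and Ces1e at 54.6%, and Ces1d and Ces1e at 48.5%. The unrelated Aadac window matched those of the Ces1 genes at 52.4% to 53.7%, and without gaps all 10 pairs of windows lay between 20.8% and 29.2%. These matches describe letters and were not tested as binding sites.

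The gene table held 20 Ces1 and Ces2 genes of the rat, 16 of them protein coding, and only 4 had a probe set with a single symbol. On chromosome 19 the order of the Ces1 genes was Ces1f, Ces1e, Ces1d, Ces1c, Ces1a and Ces1dl1, while Ces2c lies on chromosome 1 and Aadac on chromosome 2. These paralogs resemble each other, and whether a probe set also takes up transcript of a paralog was not tested.

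The arrays matched their organ labels. The mean of 6 hepatocyte markers lay between 13.86 and 14.01 on the liver arrays and between 3.52 and 7.18 on the kidney arrays. The mean of 7 proximal tubule markers lay between 11.38 and 11.93 in kidney and between 5.90 and 6.36 in liver. Array medians ran from 5.26 to 5.31 in liver and from 5.33 to 5.37 in kidney. Of the 6 probe sets, 4 were above their own array's 40th percentile on every array of both organs. The brighter Ces1c probe set passed on 29 liver arrays and on 1 kidney array, a control, so Ces1c was not tested for dose in kidney. The dimmer Ces1c probe set passed on none, with values of 3.32 to 4.17 in liver and 2.91 to 3.47 in kidney, and was not tested. Doses were compared with the organ's control by limma over all genes, and a gene was called at a Benjamini-Hochberg adjusted p under 0.05. All 6 comparisons within an organ share the same 5 control arrays.

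In control animals Ces1d, Ces1e and Aadac were higher in liver than in kidney, while no difference was called for Ces2c. These 4 passed the filter in both organs, and 3 of them were called, in a comparison that called 77.2% of 11801 genes (35.7% as higher in liver), so the count is read beside a high background. Ces1c passed through liver alone and had to differ, so its levels are given as a description. Each level below belongs to its own probe set and is compared only between organs. The sources do not state if both organs were normalised in 1 run. Values are means ± SD over 5 control arrays per organ, and each difference carries the standard error of the limma fit.

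Ces1c measured 13.11 ± 0.13 in control liver and 4.39 ± 0.33 in control kidney, where 1 of 5 arrays exceeded its 40th percentile. Against a floor of 4.71, which takes the 40th percentile wherever a kidney array lay under it, Ces1c was at least 339-fold higher in liver, with no test. Ces1d, known as a triacylglycerol hydrolase that mobilises stored lipid for lipoprotein secretion, measured 12.49 ± 0.16 in liver and 8.86 ± 0.24 in kidney. Its difference was 3.63 (SE 0.14, limma adjusted p = 1.76e-29), and no kidney array of any dose reached the lowest liver array (10.34 against 12.29). Ces1e, also called egasyn for its hold on beta-glucuronidase in the endoplasmic reticulum, measured 9.91 ± 0.08 in liver and 6.21 ± 0.97 in kidney (difference 3.70, SE 0.46, limma adjusted p = 4.13e-10). That kidney mean mixes 7.91 on control replicate 2 with 5.59 to 6.03 on the other controls. With each control array left out in turn the Ces1e difference ran from 3.55 to 4.13. Aadac measured 10.29 ± 0.12 in liver and 6.73 ± 0.31 in kidney, a difference of 3.55 (SE 0.16, limma adjusted p = 1.42e-26). Ces2c measured 7.43 ± 0.20 in liver and 7.50 ± 0.10 in kidney, a difference of -0.08 with a 95% interval from -0.30 to 0.15 (limma adjusted p = 0.546). Its sign turned with the scaling, to 0.06 under quantile and 0.03 under cyclic loess normalization over both organs. Bulk RNA cannot tell a higher share of expressing cells from more RNA per cell.

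Ces2c rose in liver at the highest dose. Its control liver arrays read 7.48, 7.74, 7.42, 7.24 and 7.28. At 300 mg/kg they read 8.03, 7.99, 8.43 and 7.86, and at 500 mg/kg 8.26, 8.54, 8.16 and 7.99. Every array of these 2 doses lay above the highest control array, a pattern that 1.39% of genes showed at 300 mg/kg and 2.7% at 500 mg/kg. At 500 mg/kg the change was 0.81 (SE 0.14, 95% interval 0.51 to 1.10), or 1.75-fold (limma adjusted p = 0.00515), higher in 4 of 4 arrays. This was 1 call among the 5 members, in a comparison that called 0.958% of 11275 genes (0.488% as higher), and Ces2c stood at rank 13 by p. At 300 mg/kg the change was 0.65 (SE 0.14, 95% interval 0.35 to 0.94), or 1.57-fold, and it missed the threshold (limma adjusted p = 0.145), with 0 of 5 members and 0.0266% of all genes called. At this dose Ces2c stood at rank 9 by p.

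Below 300 mg/kg the Ces2c liver arrays overlapped the controls. At 0.1 mg/kg they read 7.29, 7.50, 7.36 and 7.95, and at 1 mg/kg 7.61, 7.35, 7.38 and 7.18. At 10 mg/kg they read 7.38, 7.69, 7.48 and 7.96, and at 100 mg/kg 7.71, 7.47, 7.37 and 7.76. The highest single arrays of the 0.1 and 10 mg/kg groups (7.95 and 7.96) lay inside the range of the top doses, and every other array lay within or near the controls. The changes at these 4 doses were 0.09, -0.05, 0.20 and 0.15 (limma adjusted p between 0.867 and 1), with 0 of 5 members and 0% of genes called at each dose. At an unadjusted p under 0.05 the comparisons held 462, 657, 721 and 415 genes. Over the 7 doses taken as ranks, Ces2c rose by 0.13 per rank (SE 0.02, limma adjusted p = 0.0032). It was the only member called in that trend, which called 1.84% of 11275 genes (0.674% as higher).

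**Figure D1:**
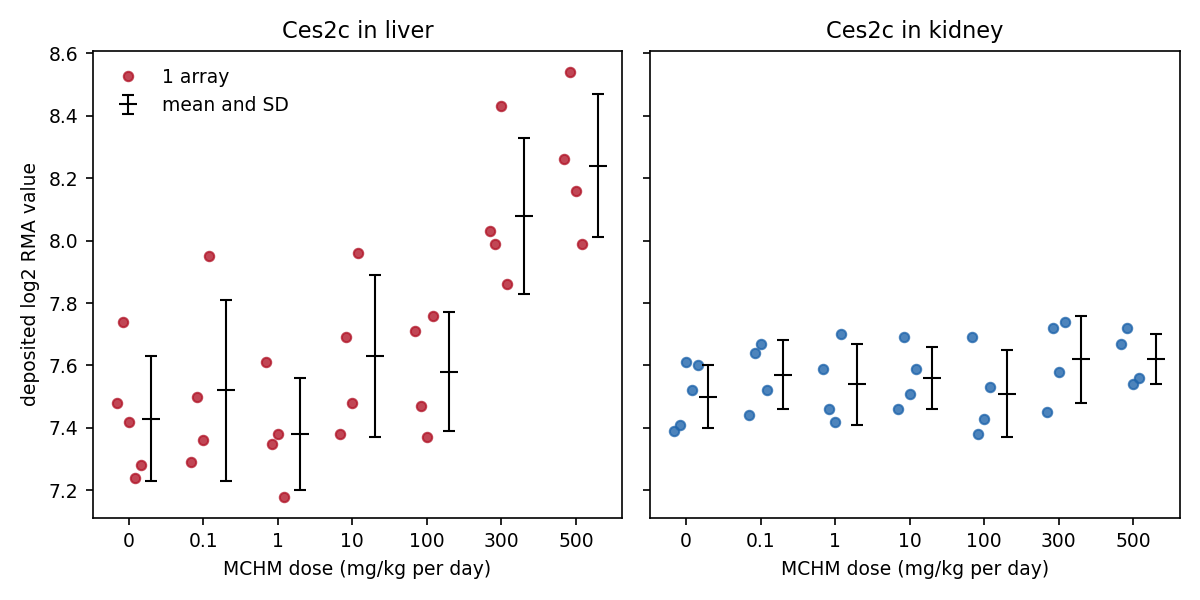
Deposited log2 values of the Ces2c probe set on each array (points) against MCHM dose in mg/kg per day, with the mean and SD of each group beside the points, in liver (left) and kidney (right). The 8 liver arrays at 300 and 500 mg/kg lie between 7.86 and 8.54, above the highest liver control at 7.74, while all kidney arrays lie between 7.38 and 7.74.

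In kidney the Ces2c values stayed in a narrow band. The control arrays read 7.39, 7.41, 7.61, 7.52 and 7.60, those at 300 mg/kg 7.45, 7.72, 7.58 and 7.74, and those at 500 mg/kg 7.67, 7.72, 7.54 and 7.56. The dosed groups overlapped the controls. At 500 mg/kg the change was 0.12 with a 95% interval from -0.04 to 0.28 (limma adjusted p = 0.653), and over all 29 kidney arrays the values ran from 7.38 to 7.74. The test of the difference itself gave 0.69 more in liver than in kidney at 500 mg/kg (SE 0.17, 95% interval 0.35 to 1.03), which missed the threshold over 10673 genes (limma adjusted p = 0.0719). That comparison called 0 of 4 members and 0.122% of genes. The call turned on the processing, with 5 of 11 alternatives calling it (limma adjusted p between 0.0185 and 0.0943). With 1 array left out it was called in 2 of 18 fits. There the difference ran from 0.59 to 0.77 and the limma adjusted p from 0.0391, without liver control replicate 2, to 0.177.

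No change was called for the other 4 members in liver at any dose. Ces1c read 13.04, 13.24, 13.10, 13.24 and 12.94 in controls and 12.91, 13.01, 13.22 and 13.02 at 500 mg/kg, so the groups overlapped. Its change was -0.07 at 500 mg/kg (95% interval -0.21 to 0.06), and its change furthest from 0 was 0.16 at 10 mg/kg (limma adjusted p = 0.76). Ces1d read 12.66, 12.39, 12.67, 12.33 and 12.41 in controls and 12.52, 12.87, 12.82 and 12.59 at 500 mg/kg. These groups overlapped too, with a change of 0.21 (95% interval -0.01 to 0.43, limma adjusted p = 0.392). Ces1e read 9.96, 10.00, 9.82, 9.93 and 9.85 in controls and 9.82, 10.10, 9.96 and 9.80 at 500 mg/kg. Its changes lay between -0.07 and 0.02 over the 6 doses, and at 500 mg/kg the 95% interval ran from -0.15 to 0.15. Aadac read 10.48, 10.15, 10.22, 10.27 and 10.31 in controls and 10.20, 10.63, 10.22 and 10.23 at 500 mg/kg. Its changes lay between -0.09 and 0.05, with an interval of -0.17 to 0.24 at 500 mg/kg. The median change of the 5 members at 500 mg/kg was 0.04, beside 0.01 over all genes.

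**Figure D2:**
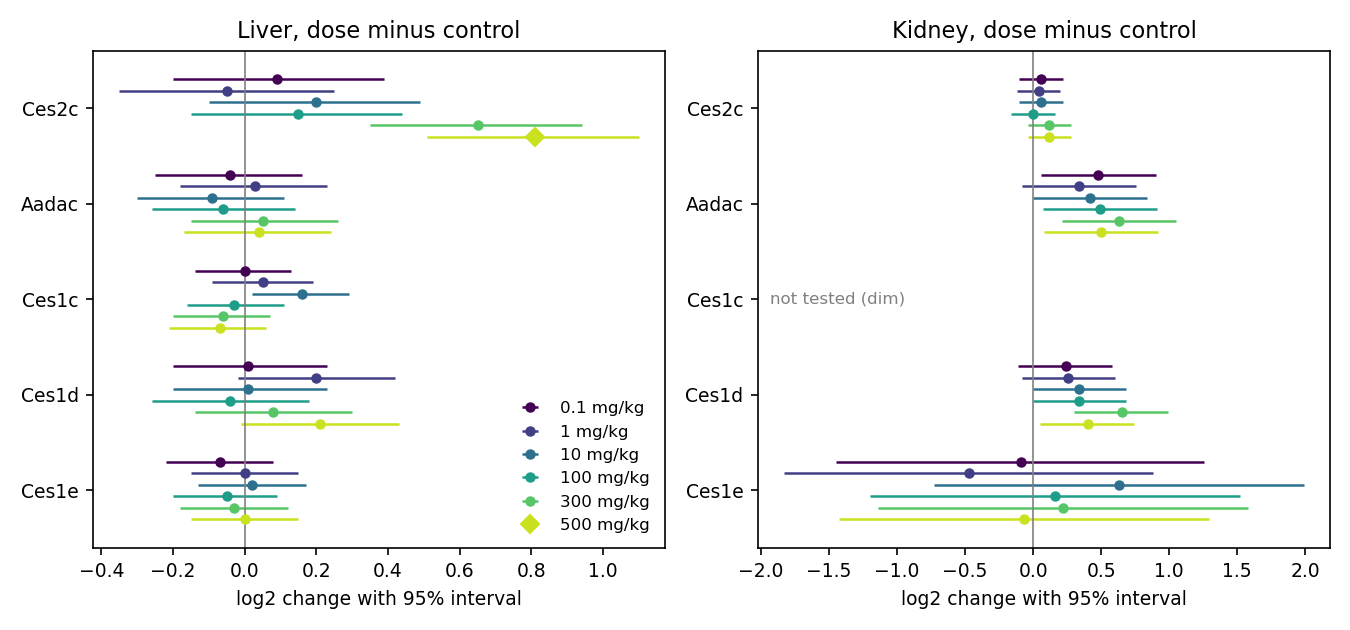
Log2 change from the organ's control at each of the 6 doses (points coloured by dose, bars the 95% interval of the limma fit) for the 5 genes in liver (left) and kidney (right), on separate horizontal scales. The diamond marks the single called change, Ces2c in liver at 500 mg/kg (0.81), and the Ces1e bars in kidney are the widest.

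In kidney no member was called at any dose or in the trend, in comparisons that called 0% of 11204 genes at 0.1, 1, 10 and 100 mg/kg, 0.0268% at 300 mg/kg and at 500 mg/kg, and 0.152% in the trend. At an unadjusted p under 0.05 these comparisons held 912, 1045, 703, 539, 643 and 1073 genes in order of dose, and the trend 1094. The median change of the 4 tested members ran from 0.15 to 0.43 over the doses, beside 0.00 to 0.02 over all genes.

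Aadac in kidney lay above the control mean of 6.73 on 22 of 24 dosed arrays. The controls read 6.88, 6.82, 6.40, 7.13 and 6.43. Arrays at 0.1 mg/kg read 7.56, 6.78, 7.30 and 7.23, and those at 1 mg/kg 7.41, 6.89, 7.16 and 6.86. The control replicates 3 and 5 were the lowest of the organ, and both groups overlapped the controls. Arrays at 10 mg/kg read 7.17, 7.18, 6.70 and 7.58, and those at 100 mg/kg 7.16, 6.71, 7.53 and 7.48. Arrays at 300 mg/kg read 7.12, 7.61, 6.98 and 7.76, and those at 500 mg/kg 7.28, 6.92, 7.58 and 7.17. Every dosed group overlapped the controls. The changes were 0.48, 0.34, 0.42, 0.49, 0.63 and 0.50 from the lowest to the highest dose, each with SE 0.20, and none was called (limma adjusted p between 0.4 and 0.977). These values share 1 set of controls, so they are not separate sightings of a change. Over dose ranks Aadac differed by 0.07 per rank (SE 0.03, limma adjusted p = 0.318). The difference between organs in the change at 500 mg/kg was -0.47 (95% interval -0.94 to 0.00, limma adjusted p = 0.589).

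Ces1d in kidney was highest on 2 arrays that also carried strong adipose signal. Its controls read 8.85, 9.14, 8.57, 8.70 and 9.07. Arrays at 0.1, 1, 10 and 100 mg/kg ran from 8.99 to 9.36, within or just above the controls. Arrays at 300 mg/kg read 9.17, 9.17, 10.34 and 9.37, and those at 500 mg/kg 9.21, 9.10, 9.67 and 9.07. All arrays at 300 mg/kg lay above all controls, as for 0.714% of genes, and those at 500 mg/kg overlapped them. The changes were 0.24, 0.26, 0.34, 0.34, 0.65 and 0.40 in order of dose, and none was called (limma adjusted p = 0.5 at 300 mg/kg and 0.424 at 500 mg/kg). At each dose 4 of 4 arrays lay above the control mean of 8.86, and all doses share 1 set of controls. Over dose ranks, with the 2 adipose arrays included, Ces1d differed by 0.08 per rank (SE 0.02, limma adjusted p = 0.165).

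Of 8 adipose markers listed, 7 passed in kidney (Adipoq, Fabp4, Cidea, Ucp1, Cfd, Lipe and Pparg). Their mean was 11.02 on replicate 3 at 300 mg/kg and 10.03 on replicate 3 at 500 mg/kg, against 5.02 to 6.29 on the other 27 arrays. Lipe hardly took part, at 7.60 and 7.45 on these 2 arrays and 6.94 to 7.57 on the other 27. Ces1d read 10.34 and 9.67 on those 2 arrays and between 8.57 and 9.37 on the others. Without both arrays the Ces1d changes were 0.37 at 300 mg/kg (limma adjusted p = 0.882) and 0.26 at 500 mg/kg (limma adjusted p = 0.594), and the group means were 9.23 ± 0.12 and 9.13 ± 0.07 (SD, n = 3 each). The part of the adipose signal in the remaining difference was not tested.

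**Figure D3:**
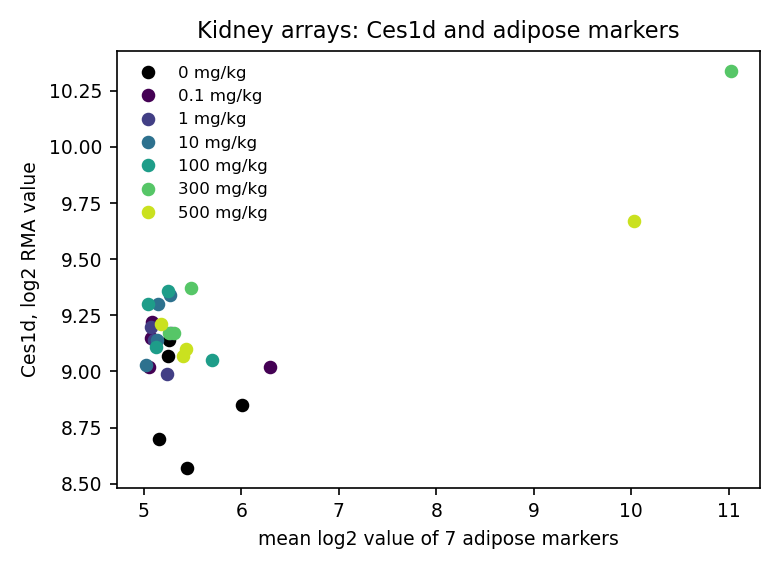
Ces1d log2 value (vertical axis) against the mean log2 value of 7 adipose markers (horizontal axis) on 29 kidney arrays, 1 point an array, coloured by dose. The arrays at 11.02 and 10.03 on the horizontal axis, 1 at 300 and 1 at 500 mg/kg, carry the highest Ces1d values, 10.34 and 9.67.

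Ces1e in kidney fell into separate levels that did not follow dose. The controls read 5.59, 7.91, 5.84, 6.03 and 5.67. Arrays at 0.1 mg/kg read 5.55, 5.37, 8.02 and 5.53, and those at 1 mg/kg 6.25, 5.74, 5.54 and 5.41. Every array of the 1 mg/kg group was low, while 1 array stood far above the rest in each of the other groups named. Arrays at 10 mg/kg read 5.82, 8.06, 5.58 and 7.89, and those at 100 mg/kg 5.76, 8.20, 5.93 and 5.59. Arrays at 300 mg/kg read 6.07, 7.78, 5.71 and 6.15, and those at 500 mg/kg 7.85, 5.85, 5.35 and 5.51. In all, 7 arrays lay between 7.78 and 8.20 and 22 between 5.35 and 6.25. The gap between both sets was 1.53, and the next largest gap between neighbouring values was 0.14. The high arrays numbered 1 of 5 in controls, 2 of 4 at 10 mg/kg, 0 of 4 at 1 mg/kg and 1 of 4 at each other dose. With this spread the standard error of a dose change was 0.66, and the changes lay between -0.47 and 0.63.

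The other members showed no such split on these 7 kidney arrays. Ces1d ran from 9.11 to 9.34 there and from 8.57 to 10.34 on the other 22, Ces2c from 7.38 to 7.72, and Aadac from 6.71 to 7.61. Ces1c, the neighbour of Ces1d on chromosome 19, ran from 4.11 to 4.90 on the 7 arrays and from 3.60 to 4.65 on the others. These ranges overlap. All 7 arrays lay above the Ces1c median of 4.10 over the 29 kidney arrays, though the lowest of them read 4.11. The 7 arrays were picked by Ces1e, and the share of kidney genes with such a lean was not worked out. The Ces1c values are near or under the 40th percentile of the kidney arrays (4.62 to 4.70), and this lean was not tested. Alb, the albumin gene and a defining hepatocyte marker, read 10.19 on control replicate 2 and at most 6.95 on the other 6, beside 3.75 to 7.28 on the 22 low arrays and 14.65 to 14.71 in liver. The mean of 6 hepatocyte markers was highest, at 7.18, on that same control array. In liver, Ces1e on the arrays of the same dose and number ran from 9.69 to 10.00, within the span of 9.69 to 10.13 over all liver arrays. Among 11203 other kidney genes, the most that any shared of its 7 highest arrays with Ces1e was 5, a number reached by 26 genes. This measure of likeness was chosen after the values were seen. How many genes would reach 5 by chance was not worked out, so the 26 genes are not read as moving with Ces1e. Ces1c did not pass the filter in kidney and was not among the genes compared.

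**Figure D4:**
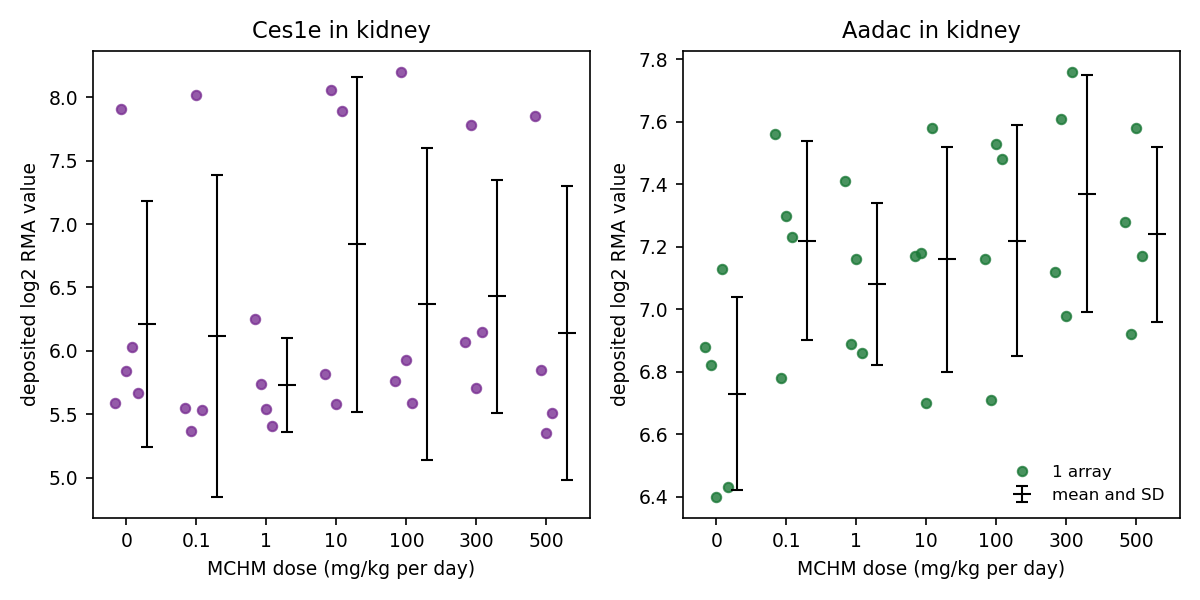
Deposited log2 values on each kidney array (points) against MCHM dose in mg/kg per day for Ces1e (left) and Aadac (right), with the mean and SD of each group beside the points. Ces1e arrays sit either at 7.78 to 8.20 or at 5.35 to 6.25, and Aadac controls centre on 6.73 with dosed groups overlapping them.

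The genes most like Ces2c over the 29 liver arrays were Cyp3a23-3a1 (Pearson r = 0.84), Gpt (0.82), Golt1a (0.82), Cyp3a18 (0.81) and Abhd1 (0.80). Cyp3a23-3a1 and Cyp3a18 are cytochrome P450 genes of drug oxidation, and Gpt encodes alanine aminotransferase. At 500 mg/kg in liver, Gpt rose by 1.22, Abhd1 by 0.65, Cyp3a18 by 0.61 and Cyp3a23-3a1 by 0.58 (limma adjusted p between 0.00105 and 0.00122), and Golt1a differed by 0.34 (adjusted p = 0.0852). The 29 arrays span the doses and share them between genes, so the coefficients are descriptions that include the differences between doses. The genes most like Aadac in liver were Suox (0.76), Cd81 (0.70), Ppox (0.69), Xkr8 (0.68) and Tom1 (0.68), with changes of 0.04 to 0.26 at 500 mg/kg and none called. The genes most like Ces1d in kidney were Gpd1 (0.88), Dgat1 (0.86), Palmd (0.84), Eci2 (0.83) and Pygl (0.83). Gpd1 and Dgat1 serve glycerolipid synthesis, and without the 2 arrays of high adipose signal these coefficients were 0.57, 0.50, 0.41, 0.41 and 0.40.

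Among known targets of CAR and PXR, 18 of 25 were tested in liver, and 2 rose at 500 mg/kg, Cyp3a18 and Cyp3a23-3a1, beside 0.488% of all genes called as higher. The median change of the 18 was 0.16, with 15 of the 18 above 0, and 0 were called as lower. At 300 mg/kg Cyp3a23-3a1 rose by 0.49 (limma adjusted p = 0.0138), while Cyp3a18 differed by 0.48 (adjusted p = 0.0717). The liver trend called 4 of the 18 as higher, beside 0.674% of all genes, namely Cyp3a18 and Cyp3a23-3a1 (0.10 per rank each), the cytochrome P450 gene Cyp3a9 (0.21 per rank, adjusted p = 0.0188) and the glutathione transferase gene Gsta3 (0.18 per rank, adjusted p = 0.0456). In kidney 11 were tested, none was called at 500 mg/kg, and their median was -0.13. The smallest p there belonged to Gstm1 (-0.52, adjusted p = 0.322) and Akr7a3 (-0.37). Of 15 receptors and regulators of these enzymes, 14 were tested in liver and 12 in kidney, with 0 called at any dose of 300 mg/kg or more. The smallest p at 500 mg/kg in liver belonged to Cebpa (0.44, adjusted p = 0.222) and Nr1h3 (0.18), and in kidney to Hnf4a (-0.11) and Rxra (-0.23).

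Of 21 other listed hydrolases, not all of them esterases, 13 were tested in liver and 11 in kidney, with 0 called at 500 mg/kg in either organ. Bphl, which splits valacyclovir and other amino acid esters, differed by 0.25 at 500 mg/kg in liver (limma adjusted p = 0.0713) and rose in the trend by 0.04 per rank (adjusted p = 0.0411). Pon1, the paraoxonase of plasma, differed by 0.11. The median of the 13 was 0.04. In kidney the smallest p belonged to Afmid, a formamidase (0.11), and Acy1, an aminoacylase (-0.12), each with adjusted p = 0.618. Of 22 genes of neutral lipid turnover, 20 were tested in liver. Lcat, which esterifies plasma cholesterol, was the only 1 called at 500 mg/kg, beside 0.958% of all genes. It fell by 0.22 (adjusted p = 0.0166). Cidec, a lipid droplet protein, differed by 0.27 (adjusted p = 0.127), and the median was -0.02. In kidney 16 were tested with 0 called at 500 mg/kg and a median of 0.18, and Tm6sf2, a gene of lipoprotein lipidation, rose in the trend by 0.08 per rank (adjusted p = 0.034). Tm6sf2 differed by 0.52 at 500 mg/kg (adjusted p = 0.0831) and Apoc3 by 0.30. The mean of the adipose markers was 10.03 on replicate 3 at 500 mg/kg, 5.18 to 5.43 on the other 3 arrays of that dose and 5.15 to 6.01 on the controls. Of these markers Lipe is also in the lipid list, but it read 7.45 on that replicate and 7.41, 7.15 and 7.47 on the other 3. The part of that array in the kidney lipid list was not tested. All 14 listed partners of the endoplasmic reticulum lumen were tested in both organs with 0 called at 500 mg/kg. Gusb, the beta-glucuronidase that Ces1e retains, differed by -0.17 in liver (adjusted p = 0.202) and Ero1b by -0.25. In kidney the smallest p belonged to Kdelr2 (0.17) and Calr (0.21).

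Cell type markers in liver at 500 mg/kg stood beside the Ces2c rise as follows. Of 6 hepatocyte markers 1 fell, Apoa1, by 0.30 (limma adjusted p = 0.0245), and the median of the 6 was -0.06. Over all genes 0.958% were called at this dose in either direction. The mean log2 value of that list on an array ran from 13.90 to 13.99 in controls and from 13.86 to 13.88 at 500 mg/kg. How often a list of 6 genes would show such separate ranges was not worked out. None of the 4 macrophage markers tested was called at that dose, with a median of -0.27, and Csf1r fell in the trend by 0.04 per rank (adjusted p = 0.0262). None of the 5 stellate and none of the 4 endothelial markers tested was called, with medians of -0.24 and -0.10, and every one of them was below 0. None of the 6 pericentral and none of the 5 periportal hepatocyte markers was called, with medians of 0.07 and -0.01. The part of cell composition in the Ces2c value was not tested.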

How the data were processed

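Messenger RNA was measured on 58 Affymetrix Rat Genome arrays, 29 per organ. The deposited table holds log2 values, 1 per probe set and array, which the authors made with RMA, per the submitters' processing notes. The sources used here give no version and do not say if both organs were normalised in 1 run. The number of arrays limits the precision. Control rows of the manufacturer (57 of 31099) were left out. Of the remaining probe sets, 20826 carry 1 symbol, 436 several and 9780 none.

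Probe sets of an organ had to exceed the 40th percentile of the array in question on 4 or more arrays, and the brightest stood for its gene (11275 genes in liver, 11204 in kidney). limma 3.58.1 in R 4.3.3 (lmFit, eBayes with an intensity trend) was fitted per organ with 1 mean per dose, per organ on dose rank, and over 58 arrays for comparisons between organs. Genes kept in either organ entered the organ comparison, and genes kept in both the difference of effects. P-values are two-sided with Benjamini-Hochberg adjustment over all genes, and the scripts were tested on simulated data. Named were all members, the 5 genes most correlated with Ces2c and Aadac in liver and with Ces1d in kidney, and from each pathway list every called gene and the 2 with the smallest p at 500 mg/kg in each organ. Marker genes come from lists of cell type markers. The members and lists were chosen with earlier results of these data known, and the lists give no independent support. Alternatives covered the filter, the probe set of a gene, the limma prior, array weights, the normalization, the arrays and blocks in the fit, the dose scale and each array left out.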

Additional observations from a re-analysis of the deposited data

Results flagged for a closer look

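In 63 groups of member values, 5 had 1 array apart from the others by Dixon's test, where chance gives about 1 in 20 groups, or 3.1. Aadac in liver read 10.60 on replicate 3 at 1 mg/kg, against 10.20 to 10.25 on the other arrays of that dose. At 500 mg/kg Aadac in liver read 10.63 on replicate 2, against 10.20 to 10.23. The other 3 were Ces1e in kidney. Its value was 7.91 on control replicate 2 (others 5.59 to 6.03), 8.02 on replicate 3 at 0.1 mg/kg (others 5.37 to 5.55) and 8.20 on replicate 2 at 100 mg/kg (others 5.59 to 5.93).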

How the results depend on the processing

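Of 2046 values under alternatives for 88 results, 1942 kept their direction and side of the threshold, 90 from 25 results took the other sign, and 14 concern the call of the organ difference in the Ces2c change at 500 mg/kg. That difference (0.69, limma adjusted p = 0.0719) was called, as the 1 member, under a stricter filter (0.69, adjusted p = 0.0468), array weights (0.66, 0.0185), quantile normalization (0.71, 0.0254), cyclic loess (0.70, 0.028) and a random block of dose and number (0.69, 0.0396). It was also called without liver control replicate 2 (0.77, 0.0391) and without kidney control replicate 1 (0.72, 0.041). These are 5 of 11 alternatives and 2 of 18 fits with an array left out, where the limma adjusted p reached 0.177. Over the arrays left out in turn the difference ran from 0.59 to 0.77, and the count of members called from 0 to 1. The cause was not tested. Ces2c in liver at 500 mg/kg was called in 11 of 11 alternatives (0.77 to 0.81, adjusted p from 0.00254 to 0.0362) and with each array of the compared groups left out (0.71 to 0.89). Ces2c at 300 mg/kg was called in none (adjusted p from 0.0599 to 0.378).

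The labels number the replicates alike in every group. Same-numbered arrays of different doses had deviations with a median r of 0.00 in liver and 0.02 in kidney over 84 pairs each, against 0.01 and 0.00 for other pairs, so the numbers were not taken to pair arrays within an organ. Liver and kidney arrays of the same dose and number had a median r of 0.15 (20 of 29 pairs over 0.1, lowest -0.03), against -0.04 for other pairs. The labels do not say that these came from 1 animal, and not every pair was over 0.1. With the replicate block Ces2c changed by 0.77 in liver at 500 mg/kg (adjusted p = 0.0362), and the organ difference was 0.69 (adjusted p = 0.0803). The replicate block changed no call of a member. The random block of dose and number, which joins liver and kidney arrays of the same dose and number, did change a call. With it the organ difference in Ces2c was 0.69 and was called (limma adjusted p = 0.0396). Values that took the other sign with the replicate block were Ces1d -0.0076 (liver at 0.1 mg/kg) and -0.0067 (liver at 10 mg/kg), Ces1e -0.012 (liver at 1 mg/kg), -0.011 (liver at 500 mg/kg) and -0.00037 (the liver trend).

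No value that took the other sign was called before or after (lowest adjusted p = 0.572), so these results have no settled direction. With array weights these were Aadac -0.014 (liver at 500 mg/kg), Ces1c 0.0092 (liver at 0.1 mg/kg), Ces1d -0.00069 (liver at 10 mg/kg), Ces1e -0.017 (liver at 500 mg/kg), 0.0019 (kidney at 0.1 mg/kg), -0.032 (kidney at 100 mg/kg), 0.38 (kidney at 500 mg/kg), -0.00083 (the liver trend) and -0.41 (the organ difference at 500 mg/kg), Ces2c -0.012 (kidney at 1 mg/kg). With quantile normalization these were Ces1c 0.015 (liver at 0.1 mg/kg), Ces1e -0.010 (liver at 1 mg/kg), -0.0072 (liver at 500 mg/kg) and -0.00018 (the liver trend), Ces2c 0.064 (control liver minus control kidney). With cyclic loess these were Ces1c 0.012 (liver at 0.1 mg/kg), Ces1e -0.013 (liver at 1 mg/kg), Ces2c 0.034 (control liver minus control kidney). Without both kidney arrays of high adipose signal it was Ces1e 0.19 (kidney at 500 mg/kg). With each array left out in turn, Aadac ran from -0.079 to 0.0047 (liver at 0.1 mg/kg), -0.069 to 0.075 (liver at 1 mg/kg), -0.069 to 0.085 (liver at 500 mg/kg) and -0.0028 to 0.013 (the liver trend). Ces1c ran from -0.044 to 0.030 (liver at 0.1 mg/kg) and -0.069 to 0.0057 (liver at 100 mg/kg). Ces1d ran from -0.089 to 0.016 (liver at 100 mg/kg), -0.051 to 0.067 (liver at 0.1 mg/kg) and -0.048 to 0.067 (liver at 10 mg/kg). Ces1e ran from -0.070 to 0.067 (liver at 1 mg/kg), -0.0071 to 0.039 (liver at 10 mg/kg), -0.055 to 0.045 (liver at 500 mg/kg), -0.0050 to 0.0037 (the liver trend), -0.057 to 0.0046 (liver at 300 mg/kg), -0.73 to 0.33 (kidney at 0.1 mg/kg), -0.64 to 0.36 (kidney at 500 mg/kg), -0.35 to 0.64 (the organ difference at 500 mg/kg), -0.45 to 0.58 (kidney at 100 mg/kg), -0.23 to 0.64 (kidney at 300 mg/kg) and -0.0069 to 0.083 (the kidney trend). Ces2c ran from -0.13 to 0.027 (liver at 1 mg/kg), -0.046 to 0.17 (liver at 0.1 mg/kg), -0.058 to 0.047 (kidney at 100 mg/kg) and -0.014 to 0.080 (kidney at 1 mg/kg). The cause of these sign changes was not tested.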
